A study of Mus musculus and Canis lupus familiaris with 12 samples.

Results

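The responses of mouse DLM8 and dog Gracie osteosarcoma cells to omacetaxine (OMX) were compared gene by gene. The members were the genes whose symbol is the same in the mouse and the dog count table when case is ignored, with 1 row per symbol in each table. They numbered 14271, of 78317 rows in the mouse table and 30424 rows in the dog table, and 7566 of them passed the filter on low counts in both lines and were tested. DLM8 cells with OMX, DLM8 cells without it, Gracie cells with OMX and Gracie cells without it were the 4 groups, with 3 poly(A) RNA libraries each. OMX-treated cells spent 6 h in medium with 50 nM of the drug after a night on the plate, and the genotype of both lines is labelled WT. Control cells are labelled untreated, although DMSO is given as the control in the treatment protocol. Each species is represented by 1 cell line, so a difference between species and a difference between these lines cannot be told apart. The labels do not say that replicates came from separate cultures, so a p-value here reflects only variation among libraries, possibly technical, and with 3 libraries against 3 an exact permutation test could not go below p = 0.1.

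Omacetaxine, also called homoharringtonine, is a plant alkaloid that binds the large ribosomal subunit and blocks an early step of peptide elongation. Proteins that turn over quickly are lost first when elongation stops, and inhibitors of elongation are known to raise the mRNAs of many immediate early and NF-kB target genes. Osteosarcoma is a bone-forming tumour that arises spontaneously in dogs, and DLM8 is a metastatic mouse line. The response of a gene is given here as the log2 fold change of OMX over untreated cells within a line, and the difference as the DLM8 response minus the Gracie response. A positive difference therefore means a larger rise, or a smaller fall, in DLM8. A difference or a response was called at an adjusted p under 0.05, from edgeR's quasi-likelihood test with Benjamini-Hochberg adjustment.

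The libraries held 9099313 to 11392715 counts in DLM8 and 2385102 to 3381831 in Gracie, and replicates of a group correlated at 0.932 to 0.962 in DLM8 and 0.863 to 0.936 in Gracie over the log2 CPM of its tested genes. Osteoblast-lineage markers had counts in 13 of 14 rows in DLM8, with TNFRSF11B at 0, and in 11 of 13 rows in Gracie. In Gracie 6 of the 13 rows averaged below 1 CPM, DMP1 and PHEX were at 0 in all libraries, and ALPL, SPP1, IBSP and PTH1R were at 0 in untreated cells, while rows above 1 CPM included RUNX2, SP7, SPARC, COL1A1, COL1A2 and TNFRSF11B. The summed level of these markers was 923 to 1365 CPM (counts scaled to the library's effective total) in OMX-treated DLM8 cells, against 2148 to 2944 CPM in untreated DLM8 cells, and 115 to 142 CPM in OMX-treated Gracie cells, against 152 to 265 CPM in untreated Gracie cells. In DLM8 a row named mt-Nd6, the mitochondrial protein-coding gene on the other strand, held 49.9 to 94.1 times the median of 12 other mitochondrial protein-coding rows, and of 706 pairs in which a coding gene overlaps a non-coding one on the opposite strand, 577 (81.7%) had more counts in the non-coding row. Ribosomal protein rows were among the 1000 rows with most counts in 4 of 78 cases in the mouse table and 43 of 58 in the dog table. Each of these mouse values is what counting on the strand opposite to the annotated gene would give, and the strand setting is not given in the sources used here. Any mouse row, also one that overlaps no other gene, may therefore hold counts from the strand opposite to the gene it names, and each DLM8 value below is that of the row as deposited. The level of a mouse row is not set against that of its dog row, and for the 3631 tested genes (48.0%) that overlap another annotated mouse gene on the opposite strand, the gene and its partner cannot be told apart. Such a gene is said below to face its partner. Positions of dog genes were not used here.

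The difference between lines was called for 897 of the 7566 shared genes (11.9%), 454 positive (6%) and 443 negative (5.86%). Among these, 392 responded in DLM8 alone (238 higher and 154 lower in OMX), 303 in Gracie alone (196 higher and 107 lower), 74 in opposite directions, 58 in the same direction but by a different amount, and 70 passed the test in neither line by itself. The 74 opposite genes comprised 45 that were higher in DLM8 and lower in Gracie and 29 that were lower in DLM8 and higher in Gracie. An absolute difference of at least 1, or 2-fold, was measured for 854 of the 897 genes. Simulated data with known changes returned 60% of 4-fold changes planted in DLM8 and 58% of those planted in Gracie, but 0% and 4% of 2-fold changes. Differences near 2-fold were thus rarely recovered in the simulation. It planted fewer changes than were called here and gave all genes of a line the same dispersion, so these shares may not hold for the real data. With libraries scaled by their totals alone, the balance moved to 653 positive and 241 negative differences (73.0% positive, against 50.6% with the scaling used here). The median difference of all genes was then 0.15 instead of -0.10, so the zero point of the differences depends on the scaling. When DLM8 untreated replicate 2 or DLM8 OMX replicate 3 was left out, responses of DLM8 alone numbered 247 and 259. Without Gracie OMX replicate 2, responses of Gracie alone numbered 185 and opposite responses 34, and opposite responses numbered 49 without DLM8 OMX replicate 2, 44 without Gracie untreated replicate 2 and 49 without Gracie OMX replicate 3.

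No overlap of OMX-treated and untreated libraries was seen for 45.5% of the shared genes in DLM8 and 39.4% in Gracie. Many genes named below were chosen partly because their groups did not overlap in at least 1 line. For these genes the lack of overlap follows from the choice and adds no support. Most genes called in one line were not called as different between the lines. Of 1672 shared genes called in DLM8 and not in Gracie, 392 (23.4%) had a called difference, and of 820 called in Gracie and not in DLM8, 303 (37.0%) did. The remaining genes of both groups are not counted as responses of one line. In 169 of the 392 DLM8 genes and 183 of the 303 Gracie genes the 95% interval of the other line's fold change lay within 2-fold, which bounds the response there, while in the rest a larger response of the other line remained possible. Both lines called 673 genes, 599 in the same direction (299 higher and 300 lower in OMX) and 74 in opposite directions. Across the 7566 genes, which share their libraries and are not independent, the fold changes correlated at a Pearson r of 0.404 and a Spearman coefficient of 0.384, and 65.2% had the same sign in both lines. A further 1595 shared genes passed the count filter in DLM8 alone, 318 of them higher and 187 lower there, and 1003 passed in Gracie alone, 155 higher and 87 lower. For these the difference was not tested.

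**Figure D1:**
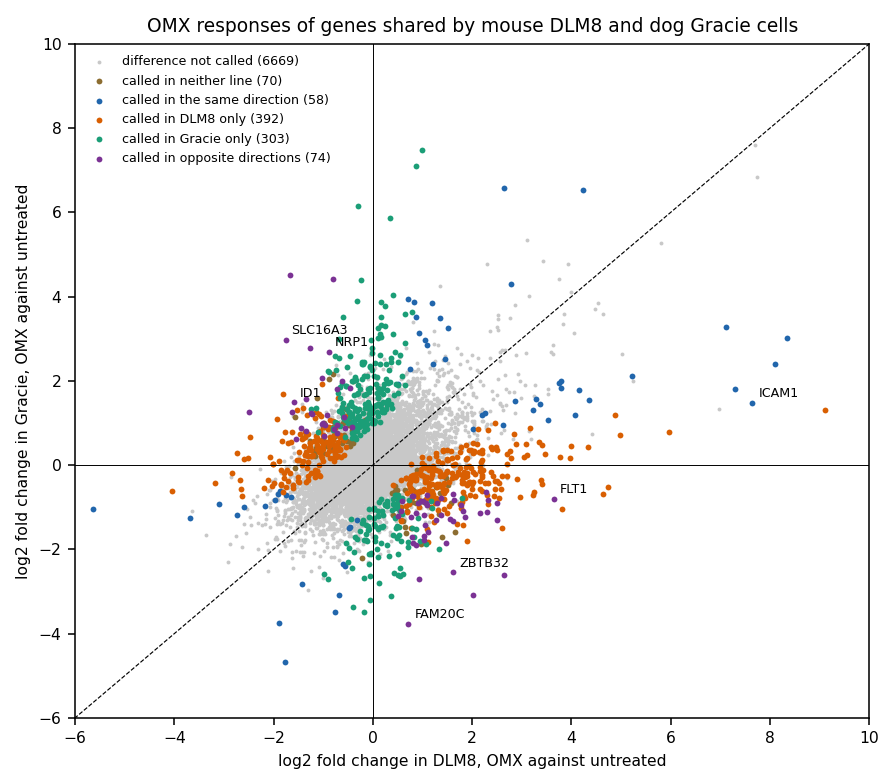
Log2 fold change of OMX over untreated cells in DLM8 (horizontal axis) and in Gracie (vertical axis) for the 7566 shared genes tested, 1 point per gene, with the dashed line marking equal responses and colours marking the class of each gene with a called difference. The 392 DLM8 responses spread along the horizontal axis, the 303 Gracie responses along the vertical axis, and the 74 opposite responses fill the upper left and lower right corners.

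Not every strong response differed between the lines. RELB, a subunit of NF-kB, had 70.6, 64.3 and 71.6 CPM in OMX-treated DLM8 cells, against 3.88, 6.22 and 4.28 CPM in untreated DLM8 cells. In Gracie cells RELB had 328, 272 and 335 CPM with OMX, against 35, 23.9 and 18.7 CPM without it. OMX-treated libraries lay above untreated ones in both lines, and the difference between lines was 0.25 (SE 0.33, adjusted p = 0.688). NR4A3, an orphan nuclear receptor, and CSRNP1, a nuclear protein induced by growth signals, also rose in both lines, with log2 fold changes of 3.99 (SE 0.56) in DLM8 and 4.11 (SE 0.80) in Gracie for NR4A3 and 3.82 (SE 0.29) in DLM8 and 3.34 (SE 0.26) in Gracie for CSRNP1. Falls shared by both lines included DAG1, which encodes the matrix receptor dystroglycan, at -2.32 (SE 0.22) in DLM8 and -2.0 (SE 0.32) in Gracie. CEMIP2, a cell-surface hyaluronidase, had log2 fold changes of -2.12 (SE 0.19) in DLM8 and -2.52 (SE 0.26) in Gracie, and SLC27A4, a long-chain fatty acid transporter, had -2.11 (SE 0.44) in DLM8 and -2.02 (SE 0.32) in Gracie. Their differences between lines were not called and ranged from -0.32 for DAG1 to 0.41 for CEMIP2. MYC, the growth-promoting transcription factor named in the study's title, had 119, 92 and 86 CPM in OMX-treated DLM8 cells, against 45.3, 46.7 and 30.6 CPM in untreated DLM8 cells. In Gracie cells MYC had 126, 154 and 225 CPM with OMX, against 79.9, 129.6 and 145 CPM without it, and these groups overlap. MYC mRNA rose in DLM8, with a log2 fold change of 1.27 (SE 0.19), and had a value of 0.51 (SE 0.27) in Gracie, and the difference of 0.76 (SE 0.36, adjusted p = 0.189) was not called.

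Genes that moved in opposite directions included a lactate exporter, a TGF-beta ligand and a histone variant. The 6 with the largest smaller response and a higher level in OMX-treated DLM8 cells were ZBTB32, TGFB2, JADE2, KANK2, TMEM132A and ADAMTS4. ZBTB32, a zinc finger repressor known from lymphocytes, had 22.5, 43.2 and 43.6 CPM in OMX-treated DLM8 cells, against 12.9, 10.6 and 12 CPM in untreated DLM8 cells. In Gracie cells ZBTB32 had 17, 15.3 and 5.78 CPM with OMX, against 94.3, 61.7 and 66 CPM without it. OMX-treated libraries were all above the untreated ones in DLM8 and all below them in Gracie, with a difference of 4.17 (SE 0.47, adjusted p = 1.34e-05). TGFB2, a ligand of the TGF-beta receptors, had 88.6, 106 and 96.8 CPM in OMX-treated DLM8 cells, against 35.1, 46.8 and 38.6 CPM in untreated DLM8 cells. In Gracie cells TGFB2 had 122, 66.4 and 61 CPM with OMX, against 259.7, 197 and 153 CPM without it, so the groups stood apart in both lines, in opposite order. The TGFB2 response was 1.28 (SE 0.16) in DLM8 and -1.29 (SE 0.28) in Gracie, and TGFB2 faces the mouse gene Gm29491. JADE2, a scaffold of a histone acetyltransferase complex, responded by 1.86 (SE 0.24) in DLM8 and -1.22 (SE 0.21) in Gracie. KANK2, an adaptor at focal adhesions, responded by 1.36 (SE 0.20) in DLM8 and -1.17 (SE 0.29) in Gracie. Both stood apart in both lines. TMEM132A, a membrane protein linked to Wnt signalling, responded by 2.15 (SE 0.24) in DLM8 and -1.13 (SE 0.20) in Gracie, and faces Slc15a3, whose row held 6.45 times its counts. ADAMTS4, a protease that cleaves aggrecan, responded by 2.30 (SE 0.17) in DLM8 and -1.12 (SE 0.32) in Gracie. Its mouse row faces another annotated gene, so the source of its mouse counts is uncertain.

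The reverse pattern, lower in OMX-treated DLM8 cells and higher in OMX-treated Gracie cells, was led by SLC16A3, the main exporter of lactate from glycolytic cells. SLC16A3 had 27.1, 36.6 and 36.1 CPM in OMX-treated DLM8 cells, against 129, 114 and 94.9 CPM in untreated DLM8 cells. In Gracie cells SLC16A3 had 212, 105 and 61.7 CPM with OMX, against 18.3, 13.1 and 16.4 CPM without it. The groups did not overlap in either line, and the difference was -4.74 (SE 0.47, adjusted p = 4.22e-06), the largest negative one among genes whose average log2 CPM reached 3 or more in each line. H2AX, the histone variant that is phosphorylated at DNA breaks, had 13.4, 8.09 and 11.2 CPM in OMX-treated DLM8 cells, against 35.5, 24.5 and 22.8 CPM in untreated DLM8 cells. In Gracie cells H2AX had 43.8, 66.4 and 67.8 CPM with OMX, against 5.57, 28.9 and 25.6 CPM without it, with untreated replicate 1 well below the other two. The H2AX difference was -2.91 (SE 0.54, adjusted p = 0.00148). COCH, a secreted matrix protein, responded by -1.25 (SE 0.26) in DLM8 and 1.25 (SE 0.26) in Gracie, and NHSL1, a regulator of actin-driven migration, by -1.23 (SE 0.41) in DLM8 and 1.22 (SE 0.36) in Gracie. NHSL1 groups overlapped in Gracie and it faces Gm18942 in the mouse. NOP16, a nucleolar factor of large-subunit assembly, responded by -1.0 (SE 0.35) in DLM8 and 1.01 (SE 0.29) in Gracie, and GALK1, the kinase that starts galactose breakdown, by -1.03 (SE 0.23) in DLM8 and 0.98 (SE 0.18) in Gracie.

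**Figure D2:**
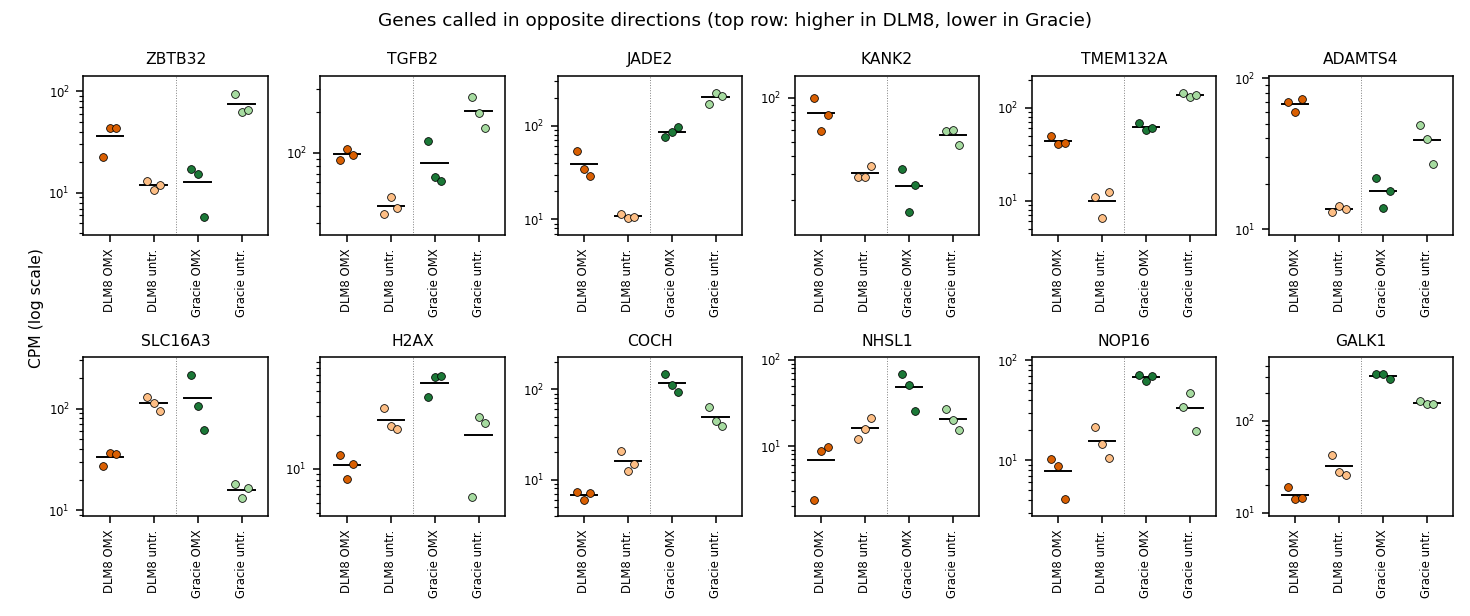
CPM of each library on a log axis for the 12 genes called in opposite directions that had the largest smaller response, with OMX left of untreated within each line, points for libraries and bars for group means (3 libraries each). In the top row the OMX points lie above the untreated ones in DLM8 and below them in Gracie, and in the bottom row the order is reversed, with an overlap in Gracie for NHSL1.

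Further genes with large differences had opposite calls too. FAM20C, a secretory-pathway kinase that phosphorylates bone matrix proteins, had 76.7, 78.2 and 72.3 CPM in OMX-treated DLM8 cells, against 55.2, 41.7 and 41.2 CPM in untreated DLM8 cells. In Gracie cells FAM20C had 17, 7.18 and 3.21 CPM with OMX, against 137, 127 and 99.2 CPM without it. It rose modestly in DLM8 and fell in Gracie, without overlap in either line, and its difference was 4.49 (SE 0.46, adjusted p = 5.23e-06). S1PR1, a receptor for sphingosine-1-phosphate, responded by 0.94 (SE 0.26) in DLM8 and -2.70 (SE 0.24) in Gracie, with OMX-treated Gracie libraries at 22.3, 23.3 and 28.3 CPM, against 149, 135 and 198 CPM in untreated ones. NRP1, a co-receptor for semaphorins and VEGF, had 3.94, 9.69 and 7.66 CPM in OMX-treated DLM8 cells, against 13, 13.8 and 12.7 CPM in untreated DLM8 cells. In Gracie cells NRP1 had 157, 108 and 96.4 CPM with OMX, against 11.1, 25.1 and 19.5 CPM without it. It fell in DLM8 and rose in Gracie, with a difference of -3.58 (SE 0.45, adjusted p = 4.39e-05).

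Rises of DLM8 alone with the smallest p of the difference were those of PEDS1, MICALL2, SERAC1, TCTN1 and ARHGAP23. MICALL2, which links Rab GTPases to the actin cytoskeleton at cell junctions, had 54.7, 58.4 and 59.7 CPM in OMX-treated DLM8 cells, against 5.55, 6.99 and 4.4 CPM in untreated DLM8 cells. In Gracie cells MICALL2 had 57.1, 55.4 and 57.5 CPM with OMX, against 45.3, 27.8 and 42.7 CPM without it. It rose in DLM8 with a log2 fold change of 3.35, was not called in Gracie at 0.55, and differed by 2.79 (SE 0.34, adjusted p = 3.25e-05). PEDS1, the desaturase that completes plasmalogen lipids, had 1792, 1547 and 1629 CPM in OMX-treated DLM8 cells, against 316, 361 and 326 CPM in untreated DLM8 cells, and its Gracie value was -0.93 (SE 0.31). The PEDS1 row faces Cebpb in the mouse, so the source of its mouse counts is uncertain. SERAC1, an enzyme of phospholipid remodelling, had log2 fold changes of 2.42 (SE 0.26) in DLM8 and -0.25 (SE 0.23) in Gracie and faces Synj2. TCTN1, a protein of the ciliary transition zone, had 3.24 (SE 0.34) in DLM8 and -0.63 (SE 0.36) in Gracie and faces Hvcn1, and ARHGAP23, a GTPase-activating protein, had 1.95 (SE 0.19) in DLM8 and -0.41 (SE 0.23) in Gracie and faces 4933428G20Rik. Thus 4 of these 5 rises were in genes whose mouse row faces another gene, while 220 of all 392 DLM8 responses (56.1%) and 3631 of all genes tested (48.0%) did.

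Falls of DLM8 alone included genes of cell division and sterol synthesis. CDC23, a subunit of the anaphase-promoting complex, had 197, 193 and 187 CPM in OMX-treated DLM8 cells, against 427, 565 and 619 CPM in untreated DLM8 cells. In Gracie cells CDC23 had 27.6, 26.3 and 31.5 CPM with OMX, against 19.5, 30.9 and 28.2 CPM without it, which overlap. The CDC23 difference was -1.60 (SE 0.30, adjusted p = 0.00157), and the gene faces Kif20a. NSDHL, an enzyme that removes a methyl group in cholesterol synthesis, had 3.54, 7.53 and 6.21 CPM in OMX-treated DLM8 cells, against 21.5, 24.9 and 19.5 CPM in untreated DLM8 cells, and differed by -3.03 (SE 0.49, adjusted p = 3.89e-04). Its Gracie value was 1.11 (SE 0.38) and did not pass the test. TUBB6, a beta-tubulin, had -1.13 (SE 0.18) in DLM8 and 0.48 (SE 0.18) in Gracie, and BZW2, a regulator of start-codon selection that faces Ankmy2, had -1.38 (SE 0.22) in DLM8 and 0.24 (SE 0.17) in Gracie. OXNAD1, a putative oxidoreductase that faces Dph3, had -0.70 (SE 0.16) in DLM8 and 1.59 (SE 0.55) in Gracie, where the Gracie value was the larger in size but missed the threshold.

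Rises of Gracie alone were headed by MAPK8IP3, SP7, GAS6, ARVCF and GLIS3. SP7, or osterix, a transcription factor required for osteoblast formation, had 71.2, 40.7 and 55 CPM in OMX-treated DLM8 cells, against 89.5, 86.5 and 63.2 CPM in untreated DLM8 cells. In Gracie cells SP7 had 28.8, 31.4 and 30.2 CPM with OMX, against 6.36, 5.4 and 6.11 CPM without it. OMX-treated Gracie libraries lay well above the untreated ones while the DLM8 groups overlapped, and the difference was -2.86 (SE 0.37, adjusted p = 6.37e-05). In the same Gracie libraries SPARC, another osteoblast-lineage marker, averaged 24.5 CPM with OMX and 110 CPM without it, so the markers did not move together. GAS6, the ligand of the receptor kinase AXL, had 215, 199.6 and 266 CPM in OMX-treated Gracie cells, against 41, 38.6 and 37.8 CPM in untreated Gracie cells. Its log2 fold changes were 0.36 (SE 0.18) in DLM8 and 2.54 (SE 0.21) in Gracie, and it faces Tmem255b. MAPK8IP3, a scaffold of the JNK pathway, had 0.04 (SE 0.12) in DLM8 and 2.43 (SE 0.28) in Gracie and faces Mrps34. ARVCF, a catenin of cell junctions, had -0.18 (SE 0.15) in DLM8 and 2.45 (SE 0.31) in Gracie. GLIS3, a Kruppel-like zinc finger factor, had 0.16 (SE 0.26) in DLM8 and 3.51 (SE 0.41) in Gracie and faces D930032P07Rik, which had no counts. A further 3 Gracie rises stood among the largest negative differences. ARID5B, a DNA-binding partner of a histone demethylase, differed by -3.56 (SE 0.53, adjusted p = 2.03e-04), UBALD1, a protein with a UBA-like domain, by -2.92 (SE 0.49, adjusted p = 6.87e-04), and SPATA1, a gene named for spermatogenesis, by -2.87 (SE 0.54, adjusted p = 0.00162).

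Falls of Gracie alone included DICER1, the nuclease that cuts microRNA precursors. DICER1 had 8.07, 6.4 and 9.31 CPM in OMX-treated DLM8 cells, against 10.2, 10.4 and 10.7 CPM in untreated DLM8 cells. In Gracie cells DICER1 had 4.05, 5.99 and 8.03 CPM with OMX, against 82.7, 53.6 and 52.7 CPM without it. The Gracie groups stood far apart, and the DLM8 response was not called at -0.39 (SE 0.25), for a difference of 2.97 (SE 0.42, adjusted p = 1.22e-04). RNF145, a ubiquitin ligase of the endoplasmic reticulum, had 20.3, 25.1 and 10.3 CPM in OMX-treated Gracie cells, against 154, 96.8 and 82.8 CPM in untreated Gracie cells, and differed by 3.18 (SE 0.45, adjusted p = 1.21e-04). KCTD15, an inhibitor of AP-2 transcription factors, had 0.42 (SE 0.20) in DLM8 and -2.56 (SE 0.48) in Gracie, and faces Gm12781. TMEM63B, a mechanically gated channel, had -0.03 (SE 0.12) in DLM8 and -2.08 (SE 0.30) in Gracie, and faces Gm16172. ADPGK, an ADP-dependent glucokinase, had 0.17 (SE 0.19) in DLM8 and -1.85 (SE 0.24) in Gracie, and faces Bbs4.

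**Figure D3:**
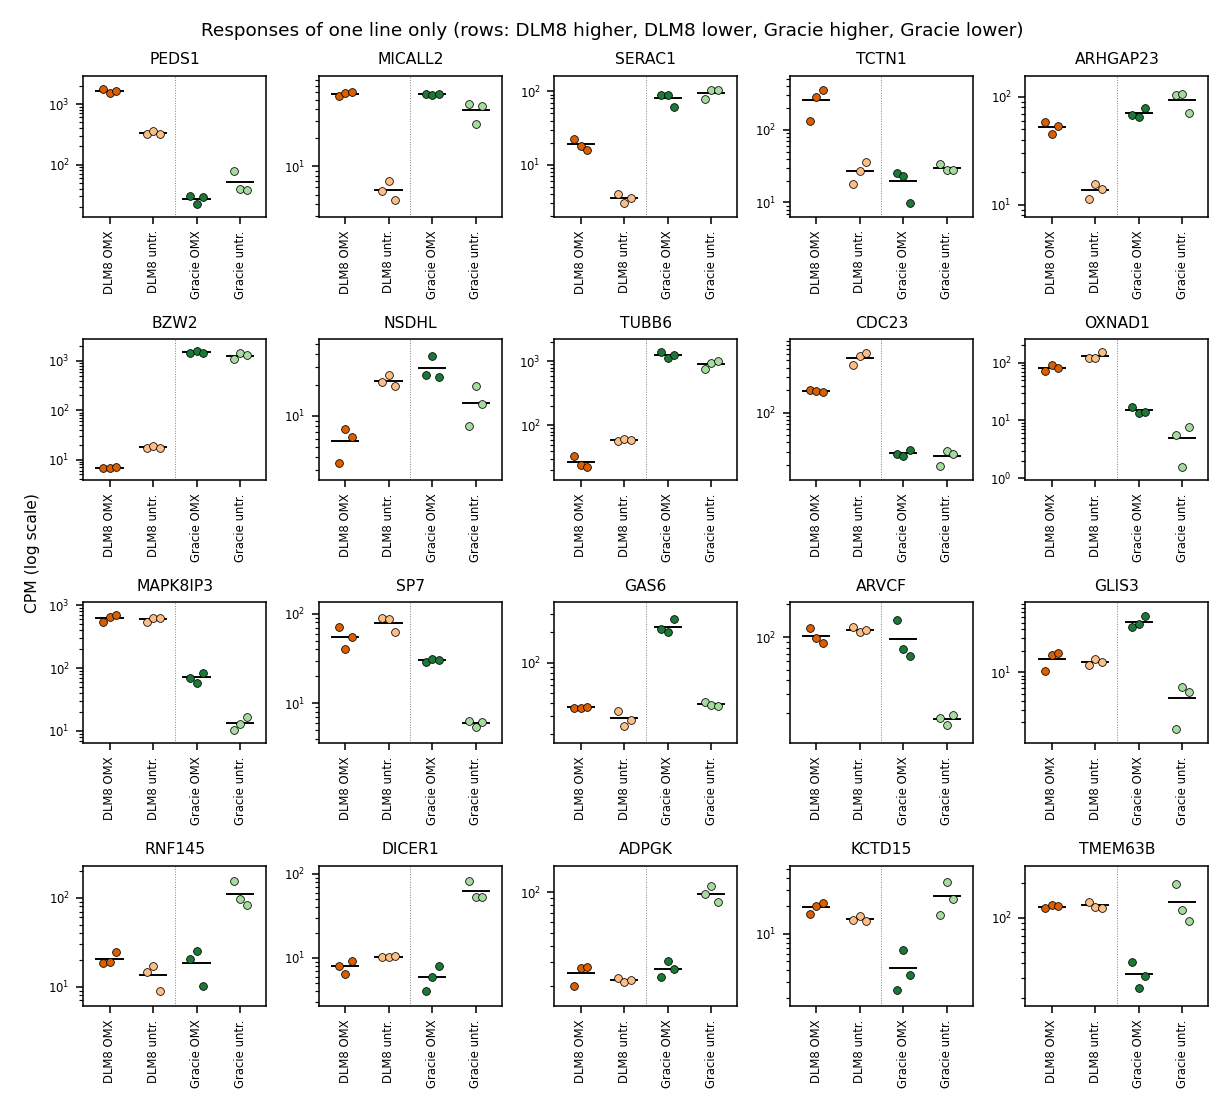
CPM of each library on a log axis for the 20 genes of one-line responses with the smallest p of the difference, 5 per row, with OMX left of untreated within each line, points for libraries and bars for group means (3 libraries each). In the upper 2 rows the OMX and untreated points separate widely in DLM8, and in the lower 2 rows they separate widely in Gracie.

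Genes that moved the same way in both lines by different amounts included inflammatory genes. ICAM1, the adhesion molecule that leukocyte integrins bind, had 83.5, 143 and 138 CPM in OMX-treated DLM8 cells, against 0.74, 0.218 and 0.81 CPM in untreated DLM8 cells. In Gracie cells ICAM1 had 129.7, 59 and 61.7 CPM with OMX, against 37.4, 23.1 and 29 CPM without it. It rose in both lines without overlap, and its difference of 6.15 (SE 0.55, adjusted p = 3.34e-06) was the largest positive one among genes whose average log2 CPM reached 3 or more in each line. The untreated DLM8 level of ICAM1 was low, so the size of this difference is uncertain. It was 5.77 to 6.59 in fits that left out 1 library. The ICAM1 row faces Gm47079, which held 20.3 times its counts. LIF, a cytokine of the interleukin 6 family that faces no annotated gene, had 47.7, 38.1 and 37.6 CPM in OMX-treated DLM8 cells, against 1.85, 2.18 and 1.97 CPM in untreated DLM8 cells. In Gracie cells LIF had 192, 191 and 225 CPM with OMX, against 73.2, 79.8 and 56.5 CPM without it, and the difference was 2.81 (SE 0.31, adjusted p = 1.34e-05). HIVEP1, a zinc finger protein that binds NF-kB motifs, rose by 4.08 (SE 0.23) in DLM8 and 1.20 (SE 0.40) in Gracie, and BAHCC1, a chromatin reader, by 3.52 (SE 0.18) in DLM8 and 1.08 (SE 0.24) in Gracie. The larger response was in Gracie for ASF1A, a histone chaperone, at 0.87 (SE 0.26) in DLM8 and 3.51 (SE 0.36) in Gracie, and for LMCD1, a LIM domain cofactor, at 1.35 (SE 0.19) in DLM8 and 3.48 (SE 0.36) in Gracie. A pair of falls were larger in DLM8. ACLY, which makes acetyl-CoA for lipid synthesis, had log2 fold changes of -2.73 (SE 0.22) in DLM8 and -1.18 (SE 0.20) in Gracie, and LRP2BP, which faces Ankrd37, had -3.68 (SE 0.27) in DLM8 and -1.26 (SE 0.21) in Gracie.

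Many genes of cholesterol and fatty acid synthesis fell in DLM8 without a called fall in Gracie. This list held the largest share of negative differences among the 45 lists with at least 5 members tested. Negative differences were called for 14 of 28 tested members (50%), against 5.86% of all shared genes tested, and the other 14 were not called as different. In DLM8 19 members were lower with OMX, against 17.6% of all genes, while in Gracie 3 were higher and 4 lower, against 10.8% and 8.92% of all genes. The list's median log2 fold change was -0.86 in DLM8 and 0.07 in Gracie, and its median difference was -1.14, against -0.10 over all genes. The count of negative differences was 7 without DLM8 untreated replicate 2 and 9 without Gracie untreated replicate 2, DLM8 untreated replicate 3 or DLM8 OMX replicate 2, and it was 7 when libraries were scaled by their totals.

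Members from several steps of the pathway had called differences, and those below besides NSDHL, SCAP and ACLY were named after their values were seen. HMGCS1, which makes HMG-CoA, had 7.09, 6.96 and 5.79 CPM in OMX-treated DLM8 cells, against 20, 33.4 and 30.1 CPM in untreated DLM8 cells. In Gracie cells HMGCS1 had 39.7, 29.9 and 13.8 CPM with OMX, against 32.6, 23.9 and 16.8 CPM without it. The DLM8 groups were separate, the Gracie groups overlapped, and the difference was -2.25 (SE 0.49, adjusted p = 0.00465), although the mouse row faces Gm48342 with 25.2 times its counts. FDPS, which makes farnesyl diphosphate, differed by -1.45 (SE 0.35, adjusted p = 0.00897). FASN, the fatty acid synthase, had 83.6, 52.4 and 32.3 CPM in OMX-treated DLM8 cells, against 122, 137 and 111 CPM in untreated DLM8 cells. In Gracie cells FASN had 836, 592 and 604 CPM with OMX, against 492, 518 and 561 CPM without it, and the difference was -1.51 (SE 0.36, adjusted p = 0.00835). SCAP, which escorts the sterol-sensing transcription factors out of the endoplasmic reticulum, fell in DLM8 at -0.72 and rose in Gracie at 0.76, and it faces 5830462I19Rik. Differences of SREBF2, the transcription factor that drives the pathway, and of FADS2, HSD17B7, FDFT1, MVK and LSS ranged from -2.29 for HSD17B7 to -0.90 for FADS2, and each lost its call in 5 to 8 of the 12 fits that left out 1 library (adjusted p up to 0.101). The summed osteoblast-lineage markers given above were lower with OMX in both lines, and summed cartilage markers were 260.9 to 415 CPM in OMX-treated DLM8 cells, against 730.5 to 1035 CPM in untreated DLM8 cells, and 1.2 to 1.62 CPM in OMX-treated Gracie cells, against 0 to 3.05 CPM in untreated Gracie cells. In DLM8 3 of 4 cartilage rows had counts, with ACAN at 0 and nearly all of the sum in COL2A1, and in Gracie 2 of 3 did, with COL9A1 at 0. The part of both marker sets in the result was not tested.

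A sterol regulatory element is the sequence that the SREBP factors bind in promoters of this pathway. Of the 14 members with a negative difference, 10 matched an entry of the RefSeq promoter table (GRCm38.p6, from 250 bases before to 50 after the start), and the letters TCACNCCAC, searched on both strands, occurred in 1 of them, that of Hmgcs1. The same letters occurred in 1.24% of all 32851 promoter windows. The stretch around the match lies at chr13:119690189-119690247 on the plus strand, the match begins 137 bases before the start, and capitals mark it. For the inflammatory genes the NF-kB consensus motif and its shorter form GGAATTTCC, which can overlap, were searched in the same way, and a match is of either form. A match occurred in 1.85% of all windows. Of the 9 NF-kB and chemokine genes with a positive difference, 7 had an entry, and 1 of these genes, Icam1, had a match. Its stretch lies at chr9:21015762-21015820 on the plus strand, and the match begins 153 bases before the start. The shorter form was found there on the minus strand, so the capitals show its reverse complement. These stretches are shown for the gene with the largest positive difference and for the head of the sterol pathway, and a match is a description of letters only.
Hmgcs1: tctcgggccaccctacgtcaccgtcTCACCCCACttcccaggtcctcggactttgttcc
Icam1: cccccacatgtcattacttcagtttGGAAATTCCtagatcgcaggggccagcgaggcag

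**Figure D4:**
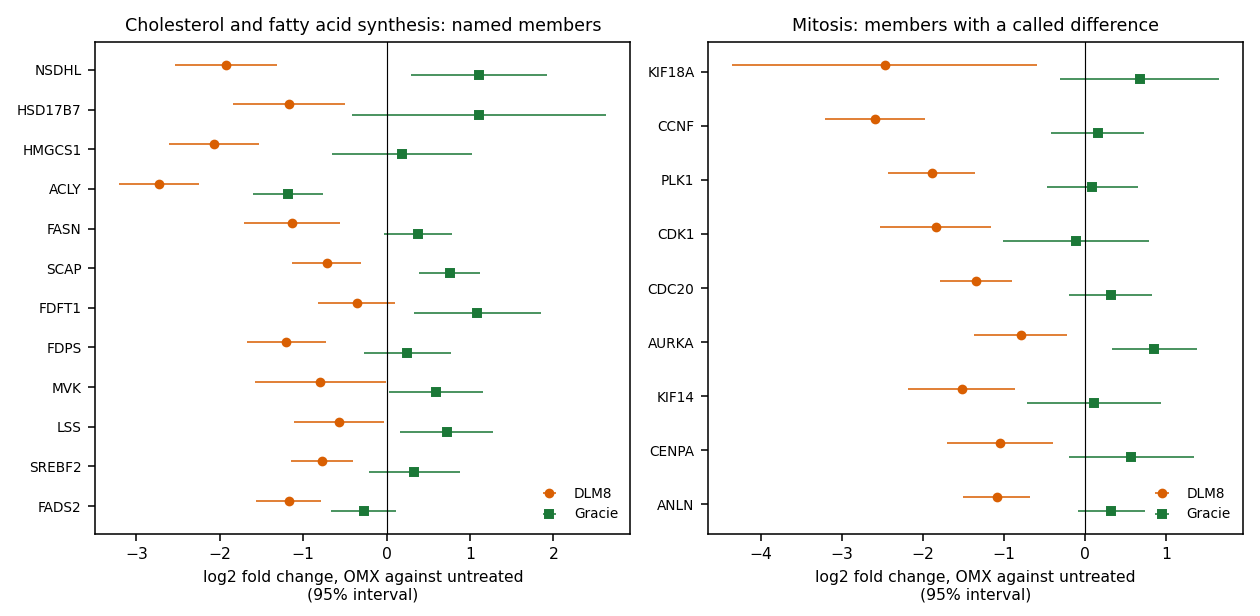
Log2 fold change of OMX over untreated cells with its 95% interval in DLM8 (circles) and Gracie (squares), for the 12 members of the cholesterol and fatty acid list named in the text (left) and the 9 mitosis and spindle members with a called difference (right). The DLM8 circles lie left of the Gracie squares, with NSDHL at -1.93 in DLM8 and 1.11 in Gracie.

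Mitosis genes were another list with many falls in DLM8. Negative differences were called for 9 of 54 tested members (16.7%) of mitosis and the spindle, against 5.86% of all genes, and 23 members were lower in OMX-treated DLM8 cells while 4 were lower and 1 higher in OMX-treated Gracie cells, against 17.6% lower in DLM8 and 8.92% lower and 10.8% higher in Gracie over all genes. The list's median log2 fold change was -0.75 in DLM8 and -0.10 in Gracie, and its median difference was -0.55. The count of negative differences was 5 without Gracie OMX replicate 2. CCNF, an F-box cyclin, had 2.17, 2.73 and 2.07 CPM in OMX-treated DLM8 cells, against 12.3, 15.7 and 14.1 CPM in untreated DLM8 cells. In Gracie cells CCNF had 37.7, 63.2 and 50.4 CPM with OMX, against 37.4, 44.7 and 54.2 CPM without it, which overlap, and the difference was -2.74 (SE 0.38, adjusted p = 1.10e-04). PLK1, the kinase of mitotic entry and spindle assembly, differed by -1.98 (SE 0.38, adjusted p = 0.00194) and faces Gm44985. CDC20, the activator of the anaphase-promoting complex, differed by -1.66 (SE 0.32, adjusted p = 0.00194) and faces Elovl1. The other members were named after their values were seen. AURKA, a spindle-pole kinase, was called in opposite directions, at -0.79 (SE 0.26) in DLM8 and 0.85 (SE 0.25) in Gracie, and ANLN, a scaffold of cytokinesis, differed by -1.41 (SE 0.27, adjusted p = 0.00211). CDK1, KIF14, KIF18A and CENPA differed by -1.73, -1.64, -3.12 and -1.62, in that order, and lost their calls in 5 to 8 of the 12 fits without 1 library (adjusted p up to 0.0995). Without DLM8 OMX replicate 1 the KIF18A difference was -4.93.

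Receptor tyrosine kinases and their ligands showed the opposite balance, with higher values in OMX-treated DLM8 cells or lower values in OMX-treated Gracie cells. Positive differences were called for 7 of 18 tested members (38.9%), against 6% of all genes, and the list's median log2 fold change was 0.01 in DLM8 and -0.66 in Gracie, and its median difference was 0.97. FLT1, a VEGF receptor, had 4.33, 3.95 and 2.69 CPM in OMX-treated DLM8 cells, against 0.37, 0 and 0.463 CPM in untreated DLM8 cells, which is a low level. In Gracie cells FLT1 had 60.4, 41 and 58.5 CPM with OMX, against 124, 75.2 and 79.7 CPM without it. It rose in DLM8 and fell in Gracie, with a difference of 4.43 (SE 0.58, adjusted p = 7.81e-05). AXL, the GAS6 receptor, had 54.5, 34.6 and 28.6 CPM in OMX-treated DLM8 cells, against 19.1, 7.64 and 6.72 CPM in untreated DLM8 cells. In Gracie cells AXL had 323, 395 and 495 CPM with OMX, against 338, 455 and 628 CPM without it. The receptor thus rose in DLM8 alone, with a difference of 2.03 (SE 0.46, adjusted p = 0.00689), while its ligand GAS6 rose in Gracie alone. FGF7, a growth factor for epithelial cells that faces Fam227b, was not called in DLM8 at 0.56 and fell in Gracie at -1.80. The other 4, named after their values were seen, were the collagen receptor DDR1, the FGF receptor FGFR3, the ephrin receptor EPHB4 and the growth factor PDGFA, with differences of 1.91 for DDR1, 1.52 for FGFR3, 1.63 for EPHB4 and 1.03 for PDGFA. All 4 face another mouse gene. Leaving out 1 library ended the call of DDR1 (Gracie untreated replicate 1, adjusted p = 0.0542), of EPHB4 (Gracie OMX replicate 2, adjusted p = 0.0513) and of PDGFA (DLM8 untreated replicate 3 or Gracie OMX replicate 2, adjusted p up to 0.0685).

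Many NF-kB genes rose in both lines, and some rose further in DLM8. Among subunits, kinases and inhibitors of NF-kB, 17 of 29 tested members were higher with OMX in DLM8 and 16 in Gracie, against 13.4% and 10.8% of all genes. Positive differences were called for 6 of 29 tested members (20.7%), against 6% of all genes. IKBKE, an inducible IkB kinase, had 19.4, 21.2 and 26.7 CPM in OMX-treated DLM8 cells, against 0.37, 0.983 and 1.39 CPM in untreated DLM8 cells. In Gracie cells IKBKE had 17.8, 15 and 21.8 CPM with OMX, against 19.9, 35.5 and 32.4 CPM without it. It rose in DLM8 alone, with a difference of 5.31 (SE 0.52, adjusted p = 4.22e-06), and faces Gm28913. Its untreated DLM8 level was low, so the size of the difference is uncertain. The inhibitors TNIP1 and BCL3 rose in both lines, TNIP1 by 3.37 (SE 0.26) in DLM8 and 1.44 (SE 0.22) in Gracie and BCL3 by 3.80 (SE 0.19) in DLM8 and 2.0 (SE 0.31) in Gracie. Other members, named after their values were seen, included MAP3K14, the kinase of the alternative NF-kB pathway, at 5.23 (SE 0.40) in DLM8 and 2.12 (SE 0.61) in Gracie. Its difference of 3.1 (SE 0.71, adjusted p = 0.00693) was 2.01 with an adjusted p of 0.123 without Gracie untreated replicate 3. NFKBIZ, a nuclear IkB protein, and BIRC2, a ubiquitin ligase of TNF signalling, rose in DLM8 alone, with differences of 1.93 for NFKBIZ and 2.58 for BIRC2, the second of which lost its call in 6 of 12 fits without 1 library (adjusted p up to 0.0991) and was 3.89 without DLM8 untreated replicate 3. OTUD7B, a deubiquitinase that restrains the alternative pathway, was the 1 member with a negative difference, at -1.86 (SE 0.45, adjusted p = 0.00967), and rose in Gracie alone. Such members numbered 3 without Gracie untreated replicate 1 or without DLM8 OMX replicate 1. Among chemokines, cytokines and adhesion molecules, ICAM1, LIF and CCL7 had positive differences, 3 of 8 members tested, against 6% of all genes. CCL7, a monocyte attractant, had 8.27, 4.89 and 4.14 CPM in OMX-treated DLM8 cells, against 0.37, 0.437 and 0.232 CPM in untreated DLM8 cells. In Gracie cells CCL7 had 997, 1078 and 1021 CPM with OMX, against 1164, 642 and 452 CPM without it, and these overlap. The untreated DLM8 level of CCL7 was low, so the size of its rise is uncertain. Beside these genes, the summed level of leukocyte markers was 125 to 209 CPM in OMX-treated DLM8 cells, against 119 to 127 CPM in untreated DLM8 cells, and 4.86 to 12.2 CPM in OMX-treated Gracie cells, against 4.96 to 6.56 CPM in untreated Gracie cells. Of 8 rows in each line 5 had counts. The 3 rows at 0 included ADGRE1 and ITGAM in DLM8 and were LYZ, PTPRC and CD3E in Gracie, and CSF1R held nearly all of the DLM8 sum, averaging 157 CPM with OMX and 120.1 CPM without it.

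Cytokine receptor signalling genes of the SOCS and STAT list had positive differences for 5 of 17 tested members (29.4%), against 6% of all genes. IL6ST, the shared receptor of LIF and interleukin 6, had 53.6, 58.4 and 51.5 CPM in OMX-treated DLM8 cells, against 16.1, 15 and 17.4 CPM in untreated DLM8 cells. In Gracie cells IL6ST had 69.7, 82.3 and 64.9 CPM with OMX, against 102, 67.9 and 58 CPM without it. It rose in DLM8 alone, with a difference of 1.83 (SE 0.32, adjusted p = 7.95e-04). STAT6, the transcription factor of interleukin 4 signalling, was called in opposite directions at 1.08 (SE 0.20) in DLM8 and -0.70 (SE 0.23) in Gracie, and faces Nab2. TYK2, a Janus kinase that faces 1700084C06Rik, differed by 2.57 (SE 0.47, adjusted p = 0.0015). In the interferon list, positive differences were called for 4 of 22 tested members (18.2%) and negative ones for 2 of 22 tested members (9.09%), against 6% and 5.86% of all genes. With OMX 13 members were higher in DLM8 and 3 in Gracie, against 13.4% and 10.8% of all genes. The list's median log2 fold change was 1.23 in DLM8 and 0.41 in Gracie, and its median difference was 0.76. ISG20, an exonuclease induced by interferon, had 3.94, 2.07 and 2.69 CPM in OMX-treated DLM8 cells, against 4.07, 2.62 and 3.94 CPM in untreated DLM8 cells. In Gracie cells ISG20 had 59.2, 55.1 and 60.7 CPM with OMX, against 0, 2.31 and 0 CPM without it. It rose in Gracie alone, with a difference of -6.49 (SE 0.75, adjusted p = 1.93e-05). Its untreated Gracie libraries held few counts, and without Gracie untreated replicate 2, the library with counts, the fitted difference was -11.89, so its size is uncertain. IRF1, a transcription factor of the interferon response, rose in both lines and more in Gracie, at 2.77 (SE 0.15) in DLM8 and 4.30 (SE 0.27) in Gracie, while OAS2, which senses double-stranded RNA, rose in DLM8 alone at 1.89 and had -0.47 in Gracie.

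Some BMP and TGF-beta signalling genes rose in Gracie. In the list of SMAD feedback and ID genes, negative differences were called for 6 of 24 tested members (25%), against 5.86% of all genes. A positive difference was called for 1 member (4.17%, against 6% of all genes), TGFB2, which fell in Gracie as given above. With OMX 6 members were higher in DLM8 and 9 in Gracie, against 13.4% and 10.8% of all genes. The list's median log2 fold change was 0.17 in DLM8 and 0.63 in Gracie, and its median difference was -0.23, and this last value was 0.04 with libraries scaled by their totals. ID1, an inhibitor of helix-loop-helix factors and a target of BMP signalling, had 2.56, 0.753 and 1.24 CPM in OMX-treated DLM8 cells, against 5.18, 3.49 and 5.09 CPM in untreated DLM8 cells. In Gracie cells ID1 had 134, 119.7 and 148 CPM with OMX, against 49.3, 47.8 and 45.8 CPM without it. The 2 lines moved in opposite directions without overlap, and the difference was -3.08 (SE 0.42, adjusted p = 1.06e-04). SMURF1, a ubiquitin ligase that degrades SMAD proteins, had log2 fold changes of 0.44 (SE 0.22) in DLM8 and 2.68 (SE 0.32) in Gracie. Named after their values were seen, ID3, a second ID protein, had 0.33 (SE 0.21) in DLM8 and 2.26 (SE 0.30) in Gracie, and SMAD2, a signal transducer of TGF-beta, had 0.21 (SE 0.32) in DLM8 and 1.84 (SE 0.31) in Gracie. TGFBR1, a TGF-beta receptor also named after its values were seen, fell in DLM8 at -1.06 (SE 0.26) and was not called in Gracie at 0.81 (SE 0.35).

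Many chaperones of the endoplasmic reticulum fell in DLM8, and several fell further there than in Gracie. Negative differences were called for 8 of 34 tested members (23.5%), against 5.86% of all genes. In OMX-treated DLM8 cells 24 members were lower, against 17.6% of all genes, and in OMX-treated Gracie cells 12 were, against 8.92%. The list's median log2 fold change was -1.26 in DLM8 and -0.65 in Gracie, and its median difference was -0.69. PDIA6, a protein disulfide isomerase that faces Atp6v1c2, had 28.5, 22.8 and 21.3 CPM in OMX-treated DLM8 cells, against 86.2, 91.5 and 88.5 CPM in untreated DLM8 cells. In Gracie cells PDIA6 had 117, 122 and 121 CPM with OMX, against 201, 172 and 183 CPM without it. Both lines showed lower values without overlap, and the difference was -1.25 (SE 0.26, adjusted p = 0.00352). SEL1L, an adaptor of ER-associated degradation, fell in DLM8 alone, at -2.67 (SE 0.37) in DLM8 and -0.35 (SE 0.30) in Gracie. Its partner ligase SYVN1 fell in Gracie alone, at 0.45 (SE 0.21) in DLM8 and -1.26 (SE 0.26) in Gracie, and faces Mrpl49. The integrated stress response list had 3 of 31 tested members (9.68%) with a negative difference, against 5.86% of all genes, among them ATF4, its central transcription factor. More members fell than rose in both lines. With OMX 15 were lower and 3 higher in DLM8, against 17.6% and 13.4% of all genes. In Gracie 10 were lower and 2 higher, against 8.92% and 10.8% of all genes. The list's median log2 fold change was -0.69 in DLM8 and -0.61 in Gracie. The negative count of this list was 8 without DLM8 OMX replicate 1. ATF4 had 126, 99.2 and 92.4 CPM in OMX-treated DLM8 cells, against 83.4, 113 and 97.3 CPM in untreated DLM8 cells. In Gracie cells ATF4 had 888, 849 and 826 CPM with OMX, against 208, 299 and 219 CPM without it. It rose in Gracie alone, with a difference of -1.71 (SE 0.28, adjusted p = 4.21e-04). DDIT4, an inhibitor of mTORC1 and a stress-induced gene, fell in Gracie alone, at 0.10 (SE 0.18) in DLM8 and -2.19 (SE 0.48) in Gracie.

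Immediate early genes were split between the lines. The list had positive differences for 6 of 34 tested members (17.6%) and negative ones for 8 of 34 tested members (23.5%), against 6% and 5.86% of all genes. With OMX 25 members were higher in DLM8 and 24 in Gracie, against 13.4% and 10.8% of all genes. The negative count was 4 without DLM8 untreated replicate 1 or DLM8 OMX replicate 2 and 5 without Gracie untreated replicate 3 or DLM8 OMX replicate 3. EGR1, a zinc finger factor of the growth response, had 105, 100.3 and 150.0 CPM in OMX-treated DLM8 cells, against 0, 0.437 and 0.695 CPM in untreated DLM8 cells. In Gracie cells EGR1 had 479, 236 and 827 CPM with OMX, against 108, 45.1 and 36.6 CPM without it. It rose in both lines, further in DLM8, with a difference of 5.29 (SE 0.79, adjusted p = 1.92e-04). The untreated DLM8 level of EGR1 was low, and its difference was 4.63 to 6.02 in fits without 1 library, so its size is uncertain. GADD45A, a stress gene of growth arrest, rose further in Gracie, at 1.19 (SE 0.30) in DLM8 and 3.85 (SE 0.41) in Gracie, and faces E230016M11Rik. ZFP36, which destabilises cytokine mRNAs and faces Gm44710, rose in DLM8 alone, at 2.70 (SE 0.29) in DLM8 and 0.26 (SE 0.35) in Gracie.

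Several cell cycle and p53 genes responded in Gracie alone. In the p53 list negative differences were called for 4 of 18 tested members (22.2%), against 5.86% of all genes. A positive difference was called for 1 member (5.56%, against 6% of all genes), FAS, which rose in DLM8 alone. With OMX 5 members were higher in DLM8 and 5 in Gracie, against 13.4% and 10.8% of all genes. Responses of Gracie alone numbered 3 of 18 in this list and those of DLM8 alone 2 of 18, against 303 and 392 of all 7566 genes tested. CDKN1A, the p21 inhibitor of cyclin-dependent kinases, had 15.2, 16.6 and 8.07 CPM in OMX-treated DLM8 cells, against 29.8, 17 and 15.7 CPM in untreated DLM8 cells. In Gracie cells CDKN1A had 201, 139 and 127 CPM with OMX, against 53.7, 31.2 and 43.5 CPM without it. It rose in Gracie alone, with a difference of -2.52 (SE 0.43, adjusted p = 6.87e-04), and faces another annotated mouse gene. SERTAD1, a CDK4-binding regulator, and AEN, a nuclease of apoptosis, also rose in Gracie alone, with differences of -2.86 for SERTAD1 and -1.50 for AEN. In the list of D and E cyclins, positive differences were called for 4 of 21 tested members (19%), against 6% of all genes. CCND1, the cyclin of early G1, had 224, 152 and 148 CPM in OMX-treated DLM8 cells, against 174, 169.7 and 163 CPM in untreated DLM8 cells. In Gracie cells CCND1 had 79.4, 66.7 and 74.2 CPM with OMX, against 367, 221 and 179.7 CPM without it. CCND1 and its kinase CDK4 fell in Gracie alone, with differences of 1.85 (SE 0.34, adjusted p = 0.00137) for CCND1 and 1.29 (SE 0.28, adjusted p = 0.00496) for CDK4, and their rows face LTO1 and Tspan31. FAS, the death receptor, and RIPK2, a kinase of innate signalling, rose in DLM8 alone, with differences of 3.79 (SE 0.88, adjusted p = 0.00749) for FAS and 2.06 (SE 0.47, adjusted p = 0.00693) for RIPK2. Untreated DLM8 libraries held 0, 0.983 and 0.463 CPM of FAS, so the size of its difference is uncertain.

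The share of members with a called difference varied among the other lists. In ribosome biogenesis negative differences were called for 5 of 56 tested members (8.93%), close to the 5.86% of all genes. They included PPAN, a factor of large-subunit assembly called in opposite directions at -1.35 (SE 0.30) in DLM8 and 0.82 (SE 0.24) in Gracie, and NOB1, an endonuclease that matures 18S rRNA and rose in Gracie alone at -0.45 (SE 0.25) in DLM8 and 1.19 (SE 0.26) in Gracie. In glycolysis and glucose uptake negative differences were called for 4 of 23 tested members (17.4%), against 5.86% of all genes, with SLC16A3 among them, while ENO2, the neuron-specific enolase, rose in DLM8 alone with a difference of 2.68 (SE 0.38, adjusted p = 1.22e-04). YAP and TEAD targets had positive differences for 7 of 22 tested members (31.8%), against 6% of all genes, a count that was 4 without Gracie OMX replicate 2, DLM8 OMX replicate 3 or Gracie OMX replicate 3. Cytosolic ribosomal proteins had 1 called difference among 56 members, a positive one (1.79%, against 6% of all genes). With OMX 37 members were lower in DLM8 and 6 in Gracie, against 17.6% and 8.92% of all genes. The called difference was that of RPL24, which was called in neither line by itself. Its mouse row was low, at 2.36, 1.51 and 1.97 CPM in OMX-treated DLM8 cells, against 0.647, 0.218 and 1.16 CPM in untreated DLM8 cells. Lysosome genes (33 tested), Notch genes (9 tested) and ETS factors (14 tested) had 0 differences called by edgeR, against 11.9% of all genes. In that order, 3, 0 and 1 had an unadjusted p under 0.05, 1, 0 and 0 were called by DESeq2 and 0, 0 and 1 by limma's voom.

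**Figure D5:**
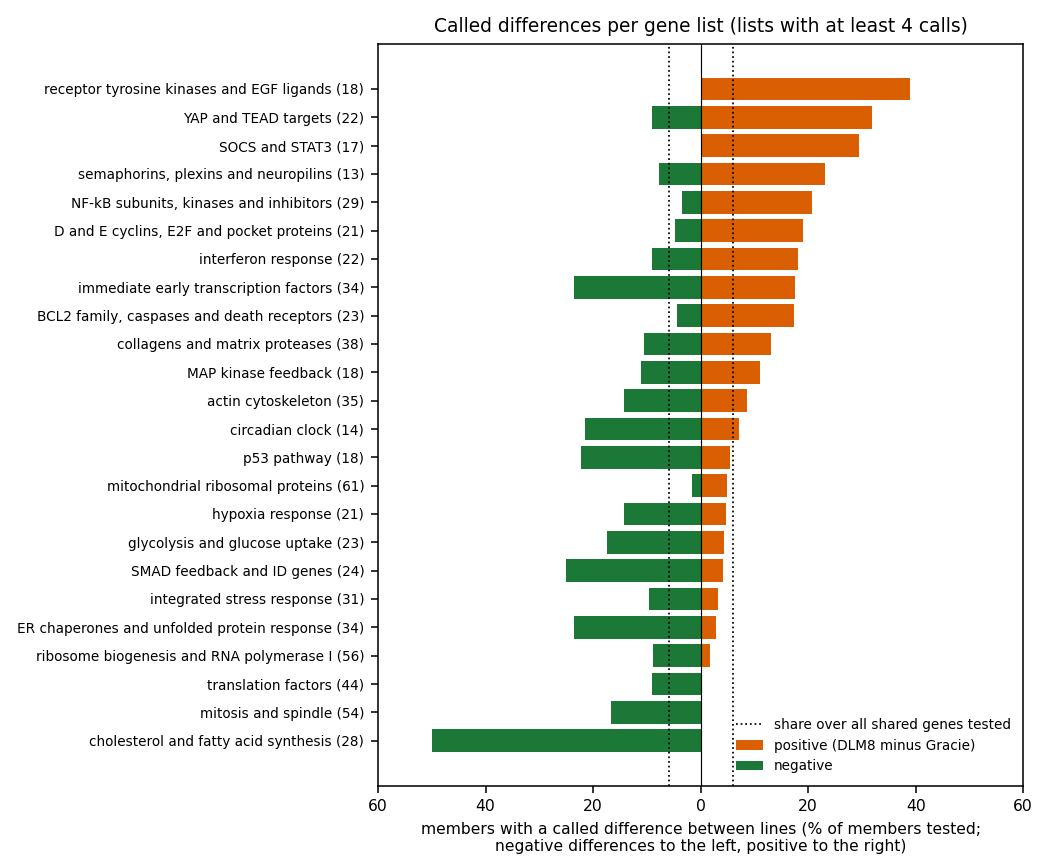
Percentage of tested members with a called difference between lines for each list with at least 4 calls, positive differences (DLM8 minus Gracie) to the right and negative ones to the left, with the number of members tested in brackets and dotted lines at the shares over all shared genes tested (6% and 5.86%). Cholesterol and fatty acid synthesis reaches 50% on the negative side and receptor tyrosine kinases 38.9% on the positive side.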

How the data were processed

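Whole-number counts per gene were deposited by the authors in a mouse table (78317 rows) and a dog table (30424 rows), 1 column for each library. The submitters' processing notes name STAR, featureCounts and Subread and the builds CanFam3.1, mm39 and GRCm39, and per the labels' protocols the libraries were poly(A)-selected and made with a Universal Plus mRNA-Seq kit. Not given in the sources used here were versions, strand setting and the handling of read pairs. Counts were even in 72.6% of nonzero mouse values and 70.0% of nonzero dog values, so they may not be independent reads.

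Columns were matched to samples by library name, and 0 were left over. Separate fits per line used edgeR 4.0.16 under R 4.3.3 (filterByExpr, TMM scaling, quasi-likelihood F-test, Benjamini-Hochberg adjustment over 17109 DLM8 or 10423 Gracie genes). The difference between lines was the interaction of line and OMX over the 7566 shared genes, with TMM scaling taken from each line's whole table and adjustment over all 7566. Standard errors are the absolute log2 value divided by the square root of F, intervals are 95% t intervals, and CPM use the TMM-scaled totals. DESeq2 1.42.0 and limma 3.58.1 (voom) served as alternatives. Counts per library were 9099313 to 11392715 in DLM8 and 2385102 to 3381831 in Gracie, and shared genes tested held 22.2% to 24.8% of the DLM8 counts and 54.9% to 65.9% of the Gracie counts. The procedure was tested on simulated data over 7310 genes, with 2 false calls.

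Named genes had a called difference, an average log2 CPM of 3 or more in each line and no overlap of groups in at least 1 line. They were the 8 largest differences per sign, 5 per line and direction among one-line responses, 6 per pattern among opposite responses and 4 per sign among same-direction responses. To these came 6 shared responses with a difference under 0.5, 3 members per gene list with the smallest p whatever their level, and MYC. Genes that a list repeats may be omitted, and a few that meet the rule are not reported here. The members and the gene lists were chosen with earlier results of these data known. Mouse genes on opposite strands were taken from GENCODE M21, a build other than that of the table, so none of its coordinates are given. Promoter windows are from RefSeq (GRCm38.p6).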

Additional observations from a re-analysis of the deposited data

Results flagged for a closer look

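The test of the difference between lines itself brings up each named gene with a call, 3 libraries per group, and the values below are the DLM8 minus Gracie log2 differences. Groups of 3 libraries are too small for a test of single libraries. Among responses of DLM8 alone, the positive differences were 5.31 for IKBKE, 3.87 for TCTN1, 3.79 for FAS, 3.52 for CCL7, 3.24 for PEDS1, 3.14 for DUSP6, 3.01 for NPAS2, 2.79 for MICALL2, 2.68 for ENO2, 2.67 for SERAC1, 2.58 for BIRC2, 2.57 for TYK2, 2.44 for ZFP36 and 2.35 for ARHGAP23. Among responses of DLM8 alone, further positive differences were 2.33 for OAS2, 2.06 for RIPK2, 2.03 for AXL, 1.93 for NFKBIZ, 1.91 for DDR1, 1.83 for IL6ST and 1.52 for FGFR3. Among responses of DLM8 alone, the negative differences were -3.12 for KIF18A, -3.03 for NSDHL, -2.74 for CCNF, -2.51 for MEF2C, -2.31 for SEL1L, -2.29 for HSD17B7, -2.29 for OXNAD1, -2.25 for HMGCS1, -1.98 for PLK1, -1.87 for TGFBR1, -1.73 for CDK1, -1.66 for CDC20, -1.64 for KIF14 and -1.62 for CENPA. Among responses of DLM8 alone, further negative differences were -1.62 for BZW2, -1.61 for TUBB6, -1.60 for CDC23, -1.51 for FASN, -1.45 for FDPS, -1.41 for ANLN, -1.26 for MXD3, -1.11 for SREBF2 and -0.90 for FADS2. Among responses of Gracie alone, the positive differences were 3.18 for RNF145, 2.98 for KCTD15, 2.97 for DICER1, 2.36 for FGF7, 2.31 for DDIT4, 2.05 for TMEM63B, 2.02 for ADPGK, 1.85 for CCND1, 1.71 for SYVN1, 1.63 for EPHB4 and 1.29 for CDK4. Among responses of Gracie alone, the negative differences were -6.49 for ISG20, -3.56 for ARID5B, -3.37 for GLIS3, -2.92 for UBALD1, -2.87 for SPATA1, -2.86 for SERTAD1, -2.86 for SP7, -2.69 for TIPARP, -2.63 for ARVCF, -2.52 for CDKN1A, -2.39 for MAPK8IP3, -2.24 for SMURF1, -2.20 for MAP2K3 and -2.18 for GAS6. Among responses of Gracie alone, further negative differences were -1.94 for ID3, -1.86 for OTUD7B, -1.71 for ATF4, -1.64 for NOB1, -1.63 for SMAD2, -1.63 for NR1D2, -1.50 for AEN and -1.45 for FDFT1. Among responses in opposite directions, the positive differences were 4.49 for FAM20C, 4.43 for FLT1, 4.17 for ZBTB32, 3.64 for S1PR1, 3.42 for ADAMTS4, 3.28 for TMEM132A, 3.14 for SEMA7A, 3.08 for JADE2, 2.57 for TGFB2, 2.54 for KANK2 and 1.78 for STAT6. Among responses in opposite directions, the negative differences were -4.74 for SLC16A3, -3.58 for NRP1, -3.08 for ID1, -2.91 for H2AX, -2.50 for COCH, -2.45 for NHSL1, -2.17 for PPAN, -2.01 for NOP16, -2.01 for GALK1, -1.65 for AURKA and -1.48 for SCAP. Among responses in the same direction, the positive differences were 6.15 for ICAM1, 5.29 for EGR1, 3.1 for MAP3K14, 2.87 for HIVEP1, 2.81 for LIF, 2.44 for BAHCC1, 1.93 for TNIP1, 1.79 for BCL3 and 1.03 for PDGFA. Among responses in the same direction, the negative differences were -2.67 for GADD45A, -2.65 for ASF1A, -2.41 for LRP2BP, -2.14 for LMCD1, -1.55 for ACLY, -1.53 for IRF1 and -1.25 for PDIA6. Among genes called in neither line by itself, the positive difference was 1.98 for RPL24. Among genes called in neither line by itself, the negative differences were -1.38 for MVK and -1.29 for LSS.

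Outside the shared genes, 2 dog rows without a symbol held 13.3% to 17.4% of all counts in OMX-treated Gracie libraries, against 3.99% to 4.32% in untreated ones. The row ENSCAFG00000044432 rose by 1.84 (SE 0.16, adjusted p = 4.52e-06 by edgeR) and ENSCAFG00000018897 by 2.07 (SE 0.19, adjusted p = 6.97e-06) on the log2 scale. They lie outside the comparison of lines because genes were matched by symbol and these rows have none. Whether the mouse table holds a counterpart was not examined. Scaling by library totals, which these rows enter, moved the balance of differences as given above. Their part in that shift was not tested.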

How the results depend on the processing

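No gene called as different between lines reversed its sign under any alternative. With genes that face no annotated gene alone (3930 tested), 399 differences were called (10.2%, against 11.9% in the main fit), 224 positive and 175 negative. They held 167 DLM8 responses, 133 Gracie responses, 39 opposite and 28 in the same direction, and 2002 genes responded in DLM8. Fewer genes were tested in this setting, and of 418 main calls tested in it 365 were kept. With library totals as the only scaling, 241 differences were negative. With an average log2 CPM of 3 or more, 302 differences were positive and 49 opposite, over fewer genes. DESeq2 called 1178 differences, limma's voom 860, halved counts 913 and mouse counts thinned to the dog depth 702. Leaving out 1 library in turn gave 654 to 999 called differences, 328 to 474 positive, 310 to 525 negative, 247 to 417 DLM8 responses, 185 to 347 Gracie responses, 34 to 101 opposite and 42 to 74 in the same direction, and 1221 to 2387 genes responding in Gracie. For the named genes, calls were lost in 63 cases and gained in 35 over the other alternatives, and lost in 236 and gained in 19 over the fits without 1 library, and 10 uncalled differences changed sign. The cause of these changes was not tested.

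The main fits treat replicates as unpaired, and whether replicate numbers pair the samples is not known. Deviations of same-numbered libraries correlated at 0.181, 0.0308 and 0.0982 in DLM8 and 0.113, -0.0204 and 0.164 in Gracie. In each line 4 of 6 libraries correlated best with their own number. With a replicate block, 1118 differences were called, 524 positive and 594 negative, with 476 DLM8, 354 Gracie and 111 opposite responses and 94 in the same direction. Depth was lower in the dog line, and intervals cover the spread between these libraries alone.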

Other observations

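Genes outside the lists above also differed between the lines. TIPARP, a target of the aryl hydrocarbon receptor that adds ADP-ribose to proteins, had 6.89, 7.62 and 7.66 CPM in OMX-treated DLM8 cells, against 5.73, 8.52 and 8.34 CPM in untreated DLM8 cells. In Gracie cells TIPARP had 527, 340.3 and 329.9 CPM with OMX, against 59.7, 89.5 and 38.5 CPM without it. It rose in Gracie alone, with a difference of -2.69 (SE 0.39, adjusted p = 1.70e-04), and faces 4931440P22Rik. In the circadian clock list 1 positive and 3 negative differences were called among 14 tested members (7.14% and 21.4%, against 6% and 5.86% of all genes), and the negative count was 1 without Gracie untreated replicate 2, Gracie OMX replicate 1, DLM8 OMX replicate 2 or DLM8 OMX replicate 3. NR1D2, a clock repressor, rose in Gracie alone at 0.08 (SE 0.27) in DLM8 and 1.70 (SE 0.31) in Gracie and NPAS2, a clock activator that faces Gm20428, rose in DLM8 alone at 2.31 (SE 0.41) in DLM8 and -0.71 (SE 0.58) in Gracie. DUSP6, a phosphatase that inactivates ERK, rose in DLM8 alone at 2.59 (SE 0.56) in DLM8 and -0.56 (SE 0.22) in Gracie, and MAP2K3, an activator of p38, rose in Gracie alone at -0.31 (SE 0.30) in DLM8 and 1.89 (SE 0.22) in Gracie. SEMA7A, a membrane-anchored semaphorin, was called in opposite directions, with 5.71, 5.08 and 6.1 CPM in OMX-treated DLM8 cells, against 1.29, 1.09 and 0.926 CPM in untreated DLM8 cells, and a difference of 3.14 (SE 0.38, adjusted p = 3.25e-05). MEF2C, a transcription factor of bone and muscle, fell in DLM8 alone at -1.32 (SE 0.27) in DLM8 and 1.19 (SE 0.50) in Gracie. MXD3, a partner of MAX that competes with MYC, fell in DLM8 alone at -1.33 (SE 0.11) in DLM8 and -0.07 (SE 0.22) in Gracie and faces Prelid1.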
